A study of Mus musculus with 6 samples.

Results

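The genes described are 6 neuropeptide precursors of the adrenal medulla: Npy (neuropeptide Y), Penk (proenkephalin), Gal (galanin), Vip (vasoactive intestinal peptide), Adcyap1 (the precursor of PACAP) and Sst (somatostatin). Their members are all probe sets of the deposited table whose only annotated gene symbol is one of these names. That gave 9 probe sets of 12422 that are not controls: 3 for Penk, 2 for Gal and 1 for each of the other genes. Whole adrenal glands were taken from male mice aged 12 weeks of the hypertensive strain BPH and the hypotensive strain BPL. Each strain has 3 Affymetrix arrays of biotin-labelled RNA, and neither strain received a treatment according to the labels. BPL and BPH are inbred lines obtained by selection for low and high blood pressure, so many loci can differ between them. Values of single arrays are given in the order of replicates 1, 2 and 3, and all signals are MAS5 signals rescaled here to a common array median. The labels do not say that an array held 1 animal, so the p-values below measure the spread between these samples, which may be technical.

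Neuropeptides are made as long precursors that enter the secretory pathway, are cut at pairs of basic residues by prohormone convertases, trimmed, often amidated, and stored in dense core granules. Chromaffin cells of the adrenal medulla keep them in the same granules as adrenaline and noradrenaline and release both when the splanchnic nerve is active. Neuropeptide Y constricts vessels and adds to the pressor action of noradrenaline, enkephalins act on opioid receptors, galanin acts on its own receptors, and PACAP is a transmitter of the nerve endings that drive chromaffin cells.

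Npy was higher in BPH, and none of the other 5 genes was called. In the main fit, 5 of the 9 probe sets, for Npy, Penk and Gal, were bright enough to be tested. Of these 5, 1 was called higher in BPH and 0 lower by limma (Benjamini-Hochberg adjusted p under 0.05 over all 7453 tested probe sets), and 2 had an unadjusted p under 0.05, as had 1532 of the 7453. Over all tested probe sets, 4.11% were called, 3.18% higher and 0.926% lower in BPH (237 and 69, against 182 and 88 with quantile normalization and 195 and 99 with the authors' scaling). With 5 probe sets, a count of 1 gives no share that can be set against these. The groups did not overlap, with BPH above BPL, for 2 of the 5 probe sets, against 19.7% of all tested ones. The 4 probe sets left out, all 3 of Vip, Adcyap1 and Sst and 1 of Penk, lay among the dimmest probe sets and are described by their values.

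**Figure D1:**
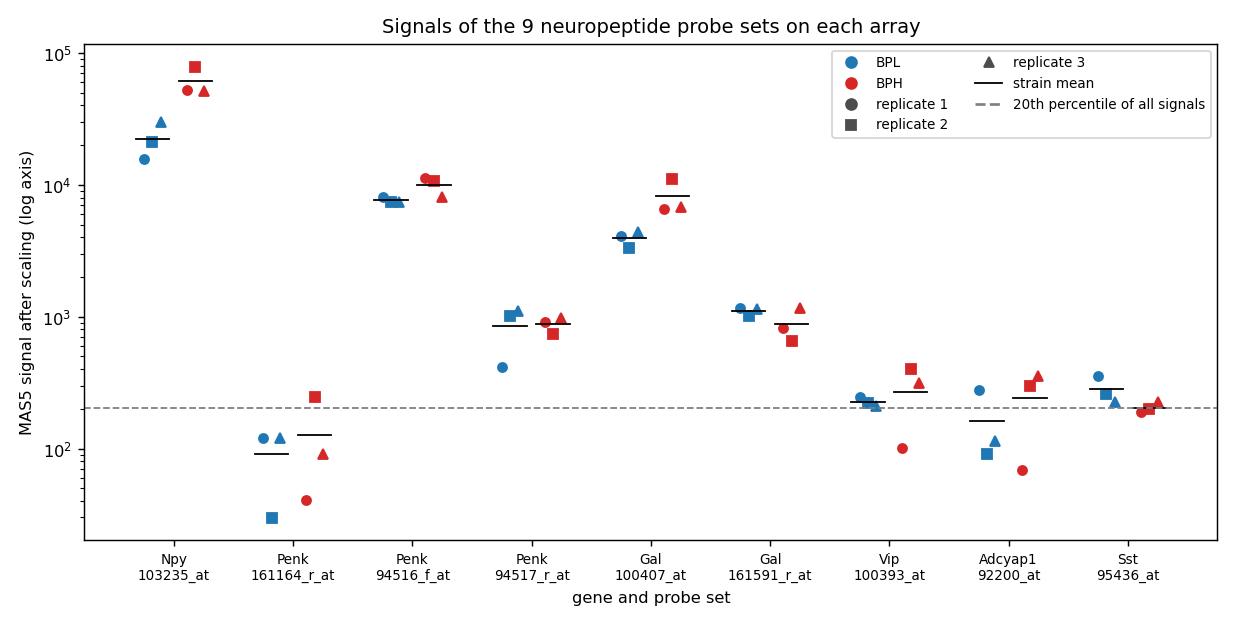
Rescaled MAS5 signal (log axis) of each of the 9 probe sets on the 6 arrays, with BPL in blue, BPH in red, 1 marker shape per replicate and black bars at the strain means. Npy (103235_at) and the brighter Gal probe set (100407_at) have all 3 BPH points above all 3 BPL points, and Vip, Adcyap1, Sst and 1 Penk probe set lie around the dashed line, a signal of 203.

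Npy is the sympathetic co-transmitter of this set. Its probe set (103235_at) read 15738, 20970 and 29789 on the BPL arrays, while the BPH arrays read 52166, 78883 and 51264. All BPH arrays lay above all BPL arrays, BPL replicate 3 came nearest to BPH, and BPH replicate 2 was the highest. The mean rose from 22166 ± 7102 to 60771 ± 15692 (SD, n = 3), which is 2.74 times as high. On the scale of log2(signal + 203) the difference was 1.47 ± 0.27 (SE), with a 95% interval from 0.86 to 2.07 (limma adjusted p = 0.023). It stood at place 80 of the 7453 tested probe sets in the order from the largest increase to the largest decrease. The call was lost without BPL replicate 1 (difference 1.25, limma adjusted p = 0.062), BPL replicate 2 (1.45, adjusted p = 0.067), BPH replicate 1 (1.56, adjusted p = 0.063) or BPH replicate 2 (1.26, adjusted p = 0.089), and with no filter on low values (1.47, adjusted p = 0.065). The difference was positive in each of the 18 alternative fits, from 0.77 to 1.70, and 11 of them called it.

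The 250 bases upstream of the Npy start site, chr6:49822460-49822709 on the plus strand of GRCm38.p6 from RefSeq, are shown because Npy is the member that was called. Capitals mark the only match to the motifs searched, a GC box (GGGCGG), the element bound by Sp factors.
Npy: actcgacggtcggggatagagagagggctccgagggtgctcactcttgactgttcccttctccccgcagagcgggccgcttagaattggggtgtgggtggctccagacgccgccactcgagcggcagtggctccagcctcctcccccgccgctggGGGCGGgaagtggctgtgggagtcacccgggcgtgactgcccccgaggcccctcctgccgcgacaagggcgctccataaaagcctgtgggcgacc
The stretch is 69.2% G and C, against a median of 52.4% over 32851 upstream windows of the same length. The motifs, searched on both strands, were the cAMP response element (CRE, TGACGTCA), its core (TGACG, which the full element contains), the AP-1 site (TGAGTCA or TGACTCA), the GC box and the TATA box (TATAAA). Of all windows, 1.55% held the full CRE, 17.8% the core, 4.46% an AP-1 site, 32.7% a GC box and 12.4% a TATA box. Entries were found for 5 of the 6 genes, all but Penk.

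Gal encodes galanin, a peptide of sympathetic and sensory neurons that chromaffin cells also make. Its brighter probe set (100407_at) read 4107, 3335 and 4402 on the BPL arrays, while the BPH arrays read 6568, 11155 and 6815. The groups did not overlap, and BPH replicate 2 was again the highest array. The BPL mean of 3948 ± 551 compares with a BPH mean of 8179 ± 2580 (SD, n = 3), 2.07 times as high, and the log2 difference was 0.98 ± 0.23 (95% interval 0.46 to 1.50). This missed the threshold (limma adjusted p = 0.052). It was called under 3 of the 18 alternatives: with a pseudocount at the 40th percentile of signals (0.91, limma adjusted p = 0.033), with the stricter filter (0.98, adjusted p = 0.016) and with a trended and robust variance (0.98, adjusted p = 0.018).

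The other Gal probe set (161591_r_at) was not higher in BPH. Its signals were 1160, 1009 and 1153 in BPL and 821, 657 and 1170 in BPH replicates 1, 2 and 3. The groups overlapped, since BPH replicate 3 was the highest of all 6 arrays. The log2 difference was -0.30 ± 0.20 (95% interval -0.75 to 0.15, limma adjusted p = 0.42). The 2 Gal probe sets thus gave differences of opposite sign, with intervals that do not meet. In the manufacturer's naming, a suffix r marks probe sets for which some probe selection rules were dropped, and a suffix f marks probes shared by a sequence family.

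The 250 bases upstream of the Gal start site, chr19:3414545-3414794 on the minus strand of GRCm38.p6 from RefSeq, are shown beside those of Npy because the brighter Gal probe set had the next largest difference.
Gal: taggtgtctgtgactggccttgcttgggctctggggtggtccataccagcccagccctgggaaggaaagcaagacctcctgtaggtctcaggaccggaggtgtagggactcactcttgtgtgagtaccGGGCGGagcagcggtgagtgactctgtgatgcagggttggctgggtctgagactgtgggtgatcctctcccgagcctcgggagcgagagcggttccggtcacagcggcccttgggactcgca
The capitals are again a GC box, and none of the other motifs is in this window, which is 62.4% G and C.

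Penk encodes proenkephalin, whose met- and leu-enkephalin act on delta and mu opioid receptors. Its bright probe set (94516_f_at) read 8022, 7442 and 7370 on the BPL arrays, while the BPH arrays read 11285, 10649 and 8018. The groups overlapped narrowly: BPH replicate 3 lay just under BPL replicate 1, while BPH replicates 1 and 2 lay above all BPL arrays. The BPL mean of 7611 ± 357 compares with a BPH mean of 9984 ± 1732 (SD, n = 3). The log2 difference, 0.37 ± 0.17 (95% interval -0.03 to 0.76), did not pass (limma adjusted p = 0.27) and ran from 0.21 to 0.52 over 18 alternatives, none of which called it (adjusted p from 0.17 to 1.0).

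The other Penk probe sets were dimmer and did not separate the strains. Probe set 94517_r_at had signals of 417, 1020 and 1109 in BPL and of 906, 743 and 969 in BPH replicates 1, 2 and 3. Its difference was 0.10 ± 0.28 (95% interval -0.54 to 0.74, limma adjusted p = 0.86), and its sign rested on BPL replicate 1, the lowest array. Without that array it was -0.24. Probe set 161164_r_at had signals of 120, 29.8 and 120 in BPL and of 40.9, 247 and 91.1 in BPH, under 203 on 5 of the 6 arrays.

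**Figure D2:**
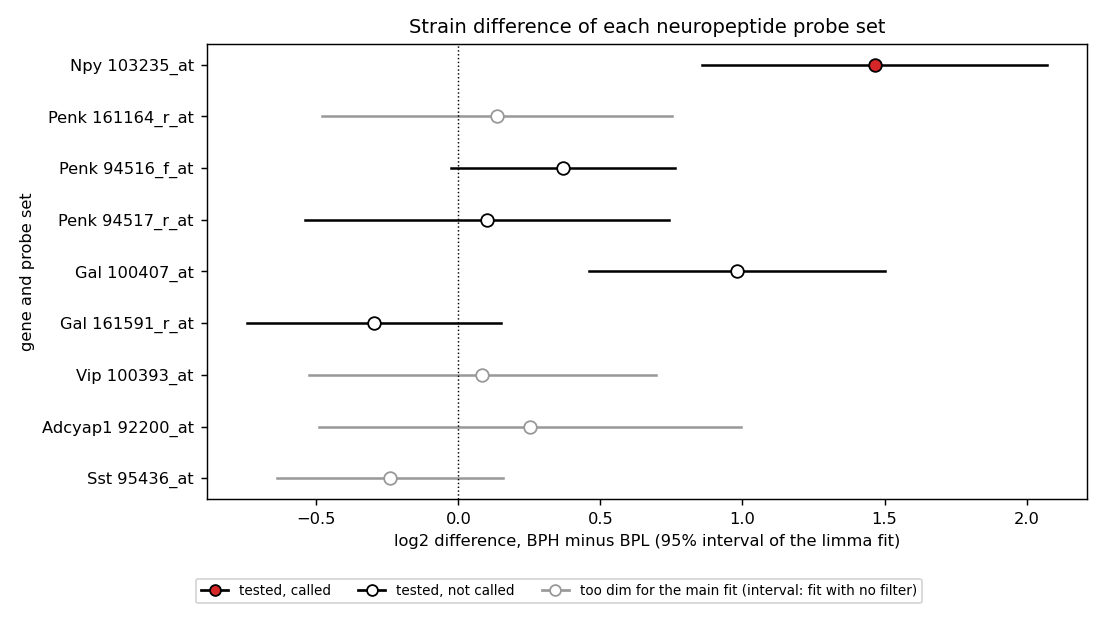
Log2 difference, BPH minus BPL, of each probe set with its 95% interval from limma. The Npy interval runs from 0.86 to 2.07, the 2 Gal probe sets lie on opposite sides of 0, and the 4 probe sets in grey, too dim for the main fit, have intervals from the fit with no filter.

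Vip, Adcyap1 and Sst were near background in both strains. Detection calls were not used here, so the background was read from 2 sources: 203, the 20th percentile of all scaled signals, and the 15 control probe sets for Bacillus subtilis transcripts, which ran from 10.9 to 696 with a median of 99.1. Whether those transcripts were added to the samples is not stated in the labels. A probe set entered the main fit from a mean log2 value of 9.68 on, which corresponds to a signal of 617.

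Vip, the precursor of a vasodilator peptide of nerve fibres, had signals of 248, 221 and 210 in BPL and of 101, 399 and 312 in BPH replicates 1, 2 and 3. BPL arrays lay between the lowest and the highest BPH array. Adcyap1 had 279, 90.8 and 114 in BPL and 69.2, 298 and 354 in BPH, with both strains spread over the same range. Sst, which restrains secretion in many endocrine tissues, had 357, 261 and 225 in BPL and 188, 199 and 225 in BPH. The highest BPH array of Sst and the lowest BPL array were nearly equal, and all 6 values were below the highest of the bacterial controls.

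With no filter on low values, 127 of 12422 probe sets were called by limma (1.02%), and 0 of the 9 neuropeptide probe sets were among them. In that fit the log2 difference was 0.08 for Vip (95% interval -0.53 to 0.70), 0.25 for Adcyap1 (-0.49 to 0.99) and -0.24 for Sst (-0.64 to 0.16), with limma adjusted p of 0.91, 0.76 and 0.56. At signals this low the pseudocount compresses a difference, so these intervals bound the change of the sum of signal and 203 and not of the transcript. A strain difference of these 3 genes was not detected. Phox2a, a chromaffin transcription factor named after its values were seen, had 187 to 198 in BPL and 704 to 776 in BPH, and was called with no filter (1.27, limma adjusted p = 0.0090). Its SD was 5.7 in BPL and 39.1 in BPH, against 103 and 151 for Adcyap1. As it was picked for its call, it does not show whether a rise of the 3 dim genes would be detected.

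For these dim genes a window of 30 bases around the CRE core is shown, because somatostatin, vasoactive intestinal peptide and PACAP genes are known to respond to cAMP. The windows are chr16:23890876-23890905 (minus strand) for Sst, chr10:5639126-5639155 (plus strand) for Vip and chr17:93198913-93198942 (plus strand) for Adcyap1, on GRCm38.p6 from RefSeq, with the core or full element in capitals.
Sst: gcgcctccttggcTGACGTCAgagagagag
Vip: gggatcactactgTGACGtctttcggggag
Adcyap1: gggactaggatgcTGACGtcttttactgat
Sst alone holds the full element, whose first base lies 48 bases before the start site.

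The chromaffin cell markers as a whole also had positive differences, and that of Npy was larger than their mean. In whole glands, fewer cells of a type and less RNA per cell cannot be told apart. Of 12 tested chromaffin markers, 5 were called higher and 0 lower, with a median log2 difference of 0.69 against 0.08 over all tested probe sets, of which 4510 of 7453 had a positive difference. Th, which carries out the limiting step in making catecholamines, rose by 1.28 ± 0.24 (limma adjusted p = 0.023), while Pnmt, which makes adrenaline, at 0.90 ± 0.25 (adjusted p = 0.097), and the granule protein Chga, at 0.53 ± 0.23 (adjusted p = 0.23), did not pass. The other probe set of each was not called either, at 1.19 for Pnmt (limma adjusted p = 0.12) and 0.08 for Chga (adjusted p = 0.81). The other calls were Gch1, Uchl1, Scg2 and Ncam1, at 1.28, 1.20, 0.84 and 0.77. With no filter on low values, 2 of these 5, Uchl1 and Gch1, passed (limma adjusted p = 0.032 and 0.023), while Th (adjusted p = 0.067), Ncam1 (0.089) and Scg2 (0.12) did not. The mean log2 value of 14 measured markers stood at 11.98, 12.06 and 12.31 on the BPL arrays and at 12.70, 13.00 and 12.82 on the BPH arrays.

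Each tested neuropeptide probe set was then expressed as its log2 value minus that marker mean on the same array, which compares changes within an array and not levels between genes. For Npy this value was 1.98, 2.31 and 2.56 in BPL and 2.98, 3.27 and 2.83 in BPH replicates 1, 2 and 3. It was higher in 3 of 3 BPH arrays, by 0.74 (exact permutation of the arrays, 2-sided, p = 0.1 and 0.25 after adjustment over 5 probe sets; 6 arrays in 2 groups of 3 can give no smaller p). This value stayed between 0.59 and 0.88 when each array was left out in turn.

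Relative to the same markers, Gal (100407_at) differed by 0.26 with overlapping groups (exact permutation p = 0.3, adjusted p = 0.3), and the bright Penk probe set by -0.35 (exact permutation p = 0.2, adjusted p = 0.3). The dimmer Gal probe set was lower in 3 of 3 BPH arrays, by 1.02 in size (exact permutation p = 0.1, adjusted p = 0.25), and Penk 94517_r_at differed by -0.62 (exact permutation p = 0.3, adjusted p = 0.3). None of these 5 tests could pass 0.05.

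**Figure D3:**
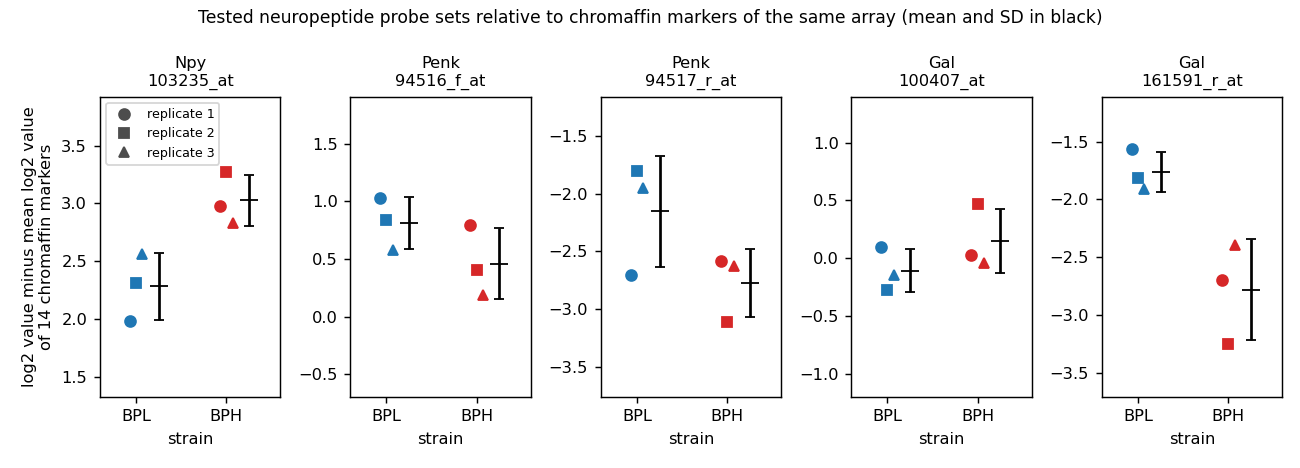
Log2 value of each tested neuropeptide probe set minus the mean log2 value of 14 chromaffin markers on the same array, by strain, with mean and SD (n = 3) in black; each panel spans the same height. Npy is higher in all 3 BPH arrays, from 2.83 to 3.27 against 1.98 to 2.56 in BPL, whereas Gal 100407_at and Penk 94516_f_at overlap between the strains.

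Across the 6 arrays, 3 probe sets of other genes followed Npy most closely among all tested ones: Csrp1, a LIM domain protein (Pearson r = 0.998), Cadm1, a cell adhesion molecule (r = 0.997), and Th (r = 0.996). The r of the deviations from the strain means was 0.990, 0.985 and 0.979; since these genes were picked for their r over the same arrays, a high value here follows in part from that choice. The log2 differences of Csrp1 and Cadm1 were 0.81 and 0.51, not called (limma adjusted p = 0.052 and 0.13). For Gal 100407_at the nearest were Wdr43, Kdm6a and Anp32b (r from 0.989 to 0.997), none of them called, and for Penk 94516_f_at they were Col5a1, Cpxm2 and Tmem141 (r from 0.993 to 0.996), none called either. Penk 94517_r_at was nearest to Itgav, Zfp292 and Cant1 (r from 0.98 to 0.99), and Gal 161591_r_at to Psme4, Lef1 and Eif3f (r from 0.976 to 0.986), again with none called. Npy and Gal 100407_at had an r of 0.93 with each other, and of 0.65 after removing the strain means. All these values come from 6 arrays that share scaling and chromaffin content, and the neighbours were picked as the highest of all tested probe sets.

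Skeletal muscle transcripts differed between the strains on the same arrays, with 7 of 11 tested muscle markers called lower in BPH. Averaged over 12 genes of skeletal muscle, the log2 value stood at 13.40, 14.48 and 11.06 on the BPL arrays and between 9.30 and 9.46 in BPH. Acta1, the skeletal muscle actin, had signals of 48471, 96330 and 12156 in BPL and at most 376 in BPH. BPL replicate 3, the BPL array with the least muscle signal, had an Npy signal of 29789. BPL replicate 2, with the most muscle signal, had 20970, and BPL replicate 1 had 15738, against 51264 to 78883 in BPH. All BPL arrays held more muscle signal than all BPH arrays, and the part of muscle content in the Npy difference was not tested. With BPL replicates 1 and 2 left out, the Npy difference was 0.99 (limma adjusted p = 0.28, with BPL replicate 3 assumed to vary like the BPH arrays), and with muscle level as a covariate, which differs between the strains, it was 0.77 (adjusted p = 1.0). The log2 ratio of 3' to 5' Gapdh control signal was -0.03, 0.06 and -0.03 in BPL and 0.08, 0.21 and 0.21 in BPH. For Actb the same ratio was 0.88, 0.79 and 0.90 in BPL and 1.05, 0.94 and 1.25 in BPH, so both controls had a higher ratio on all BPH arrays. The part of these ratios in the results was not tested.

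With 1 probe set for each gene, markers of cell types other than chromaffin cells and muscle gave 1 call. Of 7 measured nerve markers, none reached the brightness for testing, among them Slc18a3, the vesicular acetylcholine transporter of the preganglionic fibres, at 74.3 to 181. The mean log2 value of those 7 was 8.55 to 9.04 in BPL and 8.63 to 9.57 in BPH, with BPH replicate 3 the highest. Of 6 tested Schwann cell markers and 4 tested pancreas markers, 0 were called by limma, and 1 and 0 had an unadjusted p under 0.05. The islet genes Ins2 and Gcg, of the pancreas list, were at 59.1 to 113 and 29.6 to 317. Cortex markers were bright, with Star at 75933 to 105639, and 1 of 9 was called higher (Mrap, the partner of the ACTH receptor, 0.92 ± 0.16, limma adjusted p = 0.020, and 0.059 with no filter). The mean log2 value of the cortex markers was nevertheless higher on every BPH array (15.84 to 16.06) than on every BPL array (15.46 to 15.80), as was that of 7 blood and immune markers (11.33 to 11.44 against 11.03 to 11.19). Of 5 tested blood and immune markers, 6 of fat and 2 of kidney, 0 were called by limma, and 3, 3 and 0 had an unadjusted p under 0.05. The fat means overlapped (14.22 to 14.40 in BPL, 14.02 to 14.40 in BPH), as did those of kidney (8.94 to 9.51 and 9.02 to 9.70). Single fat markers went both ways, with positive differences for 3 of the 6 tested. Ucp1, the brown fat uncoupling protein, was lower on all BPH arrays (-0.84 ± 0.24, limma adjusted p = 0.097). Retn was higher on all BPH arrays (0.99 ± 0.25, limma adjusted p = 0.069). The part of these shifts in the neuropeptide results was not tested.

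Granule proteins store the peptides with catecholamines. All 7 tested granule proteins had positive differences, with a median of 0.46, and 2 were called by limma: Resp18, a granule protein of endocrine cells, rose from signals of 4181 to 6390 in BPL to 8358 to 12847 in BPH (1.10 ± 0.23, adjusted p = 0.034), and the granin Scg2, also a chromaffin marker, rose by 0.84 ± 0.19 (adjusted p = 0.048). With no filter on low values neither passed (limma adjusted p = 0.089 and 0.12). Chga and Chgb of this list are chromaffin markers as well, so the lists share genes. For this list and those below, the comparison is all tested probe sets. Of these, 4510 of 7453 had a positive difference, and 3.18% were called higher and 0.926% lower.

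Of 12 tested genes that cut or finish precursors, 9 had positive differences, 1 was called higher and 0 lower, with a median of 0.35. The call was Pcsk5, a proprotein convertase, whose signals were 2830, 2264 and 2696 in BPL and 6081, 4852 and 3876 in BPH (0.86 ± 0.19, limma adjusted p = 0.048). Its other 2 probe sets, at 0.79 and 0.14, were not called, and with no filter this one was not either (limma adjusted p = 0.12). Pcsk1, a convertase of the regulated secretory pathway, differed by 0.63 ± 0.26 with overlapping groups (limma adjusted p = 0.22), and Pam, the amidating enzyme that neuropeptide Y, galanin's rodent form, VIP and PACAP need, by 0.67 ± 0.58 (adjusted p = 0.54). Cpe, which removes the basic residues left by the convertases, had BPH signals of 53179 to 66539 above BPL signals of 40603 to 51432 and a difference of 0.35 ± 0.17 (adjusted p = 0.28), and the convertase Furin differed by -0.18 ± 0.14 (adjusted p = 0.50). For Pcsk2, another such convertase, no value is reported here.

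Other peptide precursors gave no call. Of 10 other tested precursors, 0 were called by limma, 4 had positive differences, 2 had an unadjusted p under 0.05, and the median was -0.20. Sct (secretin), the brightest, stood at 0.00 ± 0.22 (limma adjusted p = 1.0), and Oxt (oxytocin) at 0.62 ± 0.20 (adjusted p = 0.14), with BPH signals of 2784 to 3397 above BPL signals of 1522 to 2605. A further 11 precursors were too dim to test, among them Tac1, Cck and Gcg.

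Receptors of the peptides were mostly dim: 14 of 18 measured receptor genes were not tested. Of the 4 tested, 0 were called by limma and 1 had an unadjusted p under 0.05. The neuropeptide Y receptor gene Npy2r differed by -0.10 ± 0.15 (limma adjusted p = 0.74) and the somatostatin receptor gene Sstr4 by -0.14 ± 0.17 (adjusted p = 0.67). Adcyap1r1, the PACAP receptor of chromaffin cells, chosen for mention after its values were seen, had 954, 1037 and 1065 in BPL and 634, 615 and 172 in BPH. All BPH arrays were below all BPL arrays, but the difference of -0.94 ± 0.30 did not pass (limma adjusted p = 0.13), and a second, dimmer probe set was not tested.

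Of 7 tested peptidases that break down released peptides, 0 were called by limma and 0 had an unadjusted p under 0.05. The endothelin-converting enzyme Ece1, at 0.35 ± 0.18, and the aminopeptidase Npepps, at 0.40 ± 0.18, were the brightest (limma adjusted p = 0.31 and 0.26).

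The list of CREB, AP-1 and related factors holds some genes known to act on neuropeptide genes after nerve stimulation, beside others such as Rest. It was chosen with earlier results of these data known, so its count of calls is no test. A part of nerve activity was not tested. Of 15 tested genes of this list, 8 were called higher and 0 lower, with a median of 1.55. Over all tested probe sets, 3.18% were called higher and 0.926% lower. Crem, whose product ICER binds CREs, rose from signals of 1355 to 2413 in BPL to 15791 to 17005 in BPH (3.04 ± 0.20, limma adjusted p = 1.6e-04), and its second probe set rose by 2.65. The others called were Fos (3.47), Junb (3.41), Egr1 (3.16), Nr4a2 (3.06), Fosb (1.84), Atf3 (1.76) and Nr4a1 (1.55), of which Atf3 did not pass with no filter (limma adjusted p = 0.059). Creb1 itself was too dim to test.

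**Figure D4:**
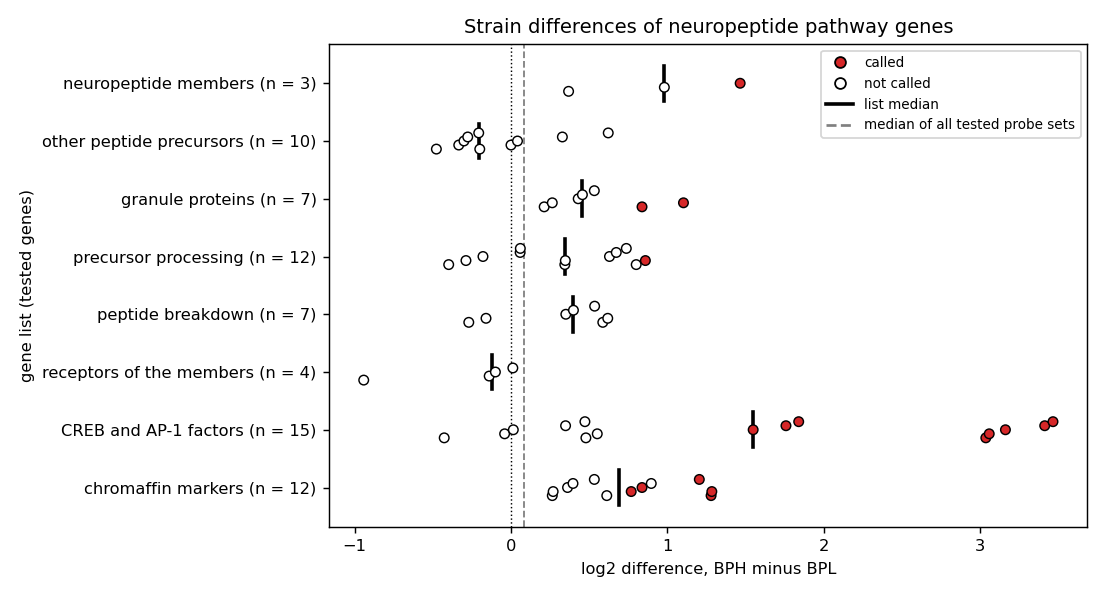
Log2 difference, BPH minus BPL, of each tested gene of 8 lists, with called genes in red, a black bar at each list median and a dashed line at 0.08, the median of all tested probe sets. Npy is the called neuropeptide at 1.47. Other peptide precursors run from -0.48 to 0.62 and receptors from -0.94 to 0.01. In the list labelled CREB and AP-1 factors, which also holds related factors such as Egr1, Nr4a1 and Nr4a2, 8 of 15 are called.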

How the data were processed

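The values deposited by the authors are linear signal intensities, for which the submitters' processing notes name MAS5. The sources used here do not state its version, settings or scaling target. Array medians ran from 945 to 1144, so each array was scaled to their mean, 1039.5. Values were log2(signal + 203), the 20th percentile of scaled signals, which compresses changes of dim probe sets. The 40% with the lowest mean log2 value were not tested. BPH and BPL were compared with limma 3.58.1 in R 4.3.3 (lmFit, eBayes, 2-sided, Benjamini-Hochberg, threshold 0.05). Code was tested on simulated data.

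For lists, the probe set with the highest mean stood for a gene. Named genes were every member, every called gene of a pathway list, up to 2 of its brightest where fewer than 2 were called, the 3 probe sets nearest to each tested member, and Th, Pnmt, Chga, Pcsk1, Pcsk2, Pam and Acta1. Other genes, such as single cell type markers, were named after their values were seen. The members and lists were chosen with earlier results of these data known. Symbols come from the platform annotation, which gives 10833 probe sets a single one. The array's genome build is not stated. The number of arrays limits the precision.

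Alternatives were other scalings (the authors' own, quantile, centring), pseudocounts, a floor, filters, a replicate block, a variance that is trended and robust, a muscle covariate and arrays left out.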

Additional observations from a re-analysis of the deposited data

How the results depend on the processing

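The 18 alternative fits gave these changes. Npy kept its sign in all of them, at 0.99 with BPL replicates 1 and 2 both left out, which leaves 1 BPL array, and kept its call in 11. The call was lost with no filter (1.47, limma adjusted p = 0.065) and once muscle level was a covariate (0.77, where 6 of 7453 probe sets were called). It was also lost without BPL replicate 1 (1.25), BPL replicate 2 (1.45), BPH replicate 1 (1.56) or BPH replicate 2 (1.26). In each of these fits that lost the call, the number of neuropeptide probe sets called higher was 0. Gal 100407_at gained a call with the higher pseudocount (0.91), the stricter filter (0.98) and the trended and robust variance (0.98), where that number was 2. Penk 94517_r_at turned to -0.29 with BPL replicates 1 and 2 left out, to -0.24 without BPL replicate 1 alone and to -0.24 given the covariate. The cause was not tested.

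With each array left out in turn, the difference ran from 1.25 to 1.70 for Npy, 0.74 to 1.11 for Gal 100407_at, -0.48 to -0.14 for Gal 161591_r_at, 0.27 to 0.52 for Penk 94516_f_at and -0.24 to 0.30 for Penk 94517_r_at, and 0 or 1 probe sets were called higher and 0 lower. Same-numbered arrays did not deviate together (r of -0.06, -0.05 and -0.18), so the titles' numbers are not taken to pair samples. With the replicate block, Npy stayed called (1.47, limma adjusted p = 0.021) and 239 probe sets were called against 306. Calls over all probe sets numbered 127 with no filter, 92 without BPL replicates 1 and 2, and 112 to 372 with 1 array left out. Quantile normalization gave 182 higher and 88 lower calls, the authors' scaling 195 and 99, and the main fit 237 and 69. For the 4 dim probe sets no difference was called with no filter. Their intervals, which reach 0.99 for Adcyap1, do not bound the change of the transcript, so larger changes also stay unresolved at these signals.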
